A study of Mus musculus with 23 samples.

Results

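Subcutaneous white fat of mice given oxaliplatin was compared with that of mice given vehicle, gene by gene. The comparison took 7 of the 23 libraries of the series, chosen by the column names of the fat table, with 4 from oxaliplatin mice (numbers 2 to 5) and 3 from vehicle mice (numbers 1, 2 and 4). Oxaliplatin, a platinum drug that crosslinks DNA and is used against bowel cancer, was given at 10 mg/kg for 8 weeks to C57BL/6 mice, an inbred laboratory strain, and the vehicle mice were of the same strain. The design text calls the fat subcutaneous, and the labels name no genotype, age or sex. Xist was at most 0.866 CPM and the Y-linked genes summed to 145 to 219 CPM in each of the 7 libraries. Each library holds bulk RNA of 1 numbered mouse and was depleted of ribosomal RNA, and the p-values measure the spread between these mice. Levels are CPM, the counts per 1e6 reads after TMM scaling, and a fold change is oxaliplatin over vehicle on the log2 scale, given with its standard error.

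White fat stores triglyceride in adipocytes and releases it as fatty acids in need. Adipocytes also secrete hormones, the adipokines, of which leptin reports the size of the fat store to the brain. Between the adipocytes lie progenitor cells and fibroblasts that make the collagen matrix, as well as vessels, nerves and leukocytes, and the tissue borders on skin and muscle and can hold lymph nodes. All 14 adipocyte markers of the list used here were tested. Their summed level was 21675, 21262, 19774 and 32027 CPM in oxaliplatin mice 2 to 5 and 34202, 27604 and 25988 CPM in vehicle mice 1, 2 and 4. Cfd, which was higher with oxaliplatin, is a large part of this sum. Of the 14 markers 11 had a log2 fold change below 0 and 3 above. Their mean log2 CPM minus the vehicle mean was -1.04, -1.25, -1.05 and -0.08 in oxaliplatin mice 2 to 5. In vehicle mice 1, 2 and 4 it was 0.21, -0.09 and -0.12. Adipoq, the adipocyte hormone adiponectin, was at 657 to 1238 CPM with oxaliplatin and 1015 to 1288 CPM with vehicle, so adipocyte transcripts were present in each library. In bulk samples, fewer cells of a type and less RNA per cell cannot be told apart.

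Total counts were 16.5 to 18.0 M (M, 1e6 reads) per oxaliplatin library and 16.9 to 22.7 M per vehicle library, and 19870 of the 26702 genes in the table were tested. Oxaliplatin mouse 5 stood apart from the other oxaliplatin mice. On the first principal component of the expression values, with 48.4% of the variance, oxaliplatin mice 2, 3 and 4 lay at -89.6, -69.7 and -52.6, and oxaliplatin mouse 5 lay at 40.0, near the vehicle mice at 53.6, 55.2 and 63.1. The library of vehicle mouse 4 was rich in muscle fibre transcripts. The 24 muscle fibre genes summed to 1747, 4154, 518 and 1352 CPM in oxaliplatin mice 2 to 5, and to 1661, 82.5 and 160857 CPM in vehicle mice 1, 2 and 4. Ttn, the giant sarcomere protein titin, was at 947, 2349.9, 215 and 651 CPM in the oxaliplatin mice and 899, 7.34 and 64813 CPM in the vehicle mice. Values are therefore also given without oxaliplatin mouse 5, and without both of these libraries.

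No gene passed an adjusted p of 0.05 in edgeR's quasi-likelihood test over the 7 libraries, where the smallest adjusted p was 0.0751. At an unadjusted p under 0.05 there were 2664 genes higher with oxaliplatin (13.4% of those tested) and 2514 lower (12.7%). DESeq2 on the same libraries called 1168 genes higher (5.88%) and 1282 lower (6.45%). Without oxaliplatin mouse 5, edgeR called 2346 of 19472 genes higher (12.0%) and 2623 lower (13.5%). Without both oxaliplatin mouse 5 and vehicle mouse 4 it called 1743 of 20332 higher (8.57%) and 2344 lower (11.5%). Leaving out any other library, vehicle mouse 4 included, gave 0 calls, except for 6 higher genes without oxaliplatin mouse 2. Of the 4969 genes called without oxaliplatin mouse 5, 2164 were also among the 2450 DESeq2 calls on all libraries, that is 43.6% of the first set and 88.3% of the second. All 4 oxaliplatin libraries lay above all 3 vehicle libraries in 2051 genes (10.3%) and below them in 2223 (11.2%), whether or not the test called the gene. Counts of list members below are to be read against these shares. The median log2 fold change over all tested genes was 0.03. Since oxaliplatin mouse 5 is the oxaliplatin library nearest to the vehicle mice, leaving it out widens the difference between the groups. Calls without it compare oxaliplatin mice 2 to 4 with vehicle, were made with the values known, and are not a test of all 4 oxaliplatin mice.

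**Figure D1:**
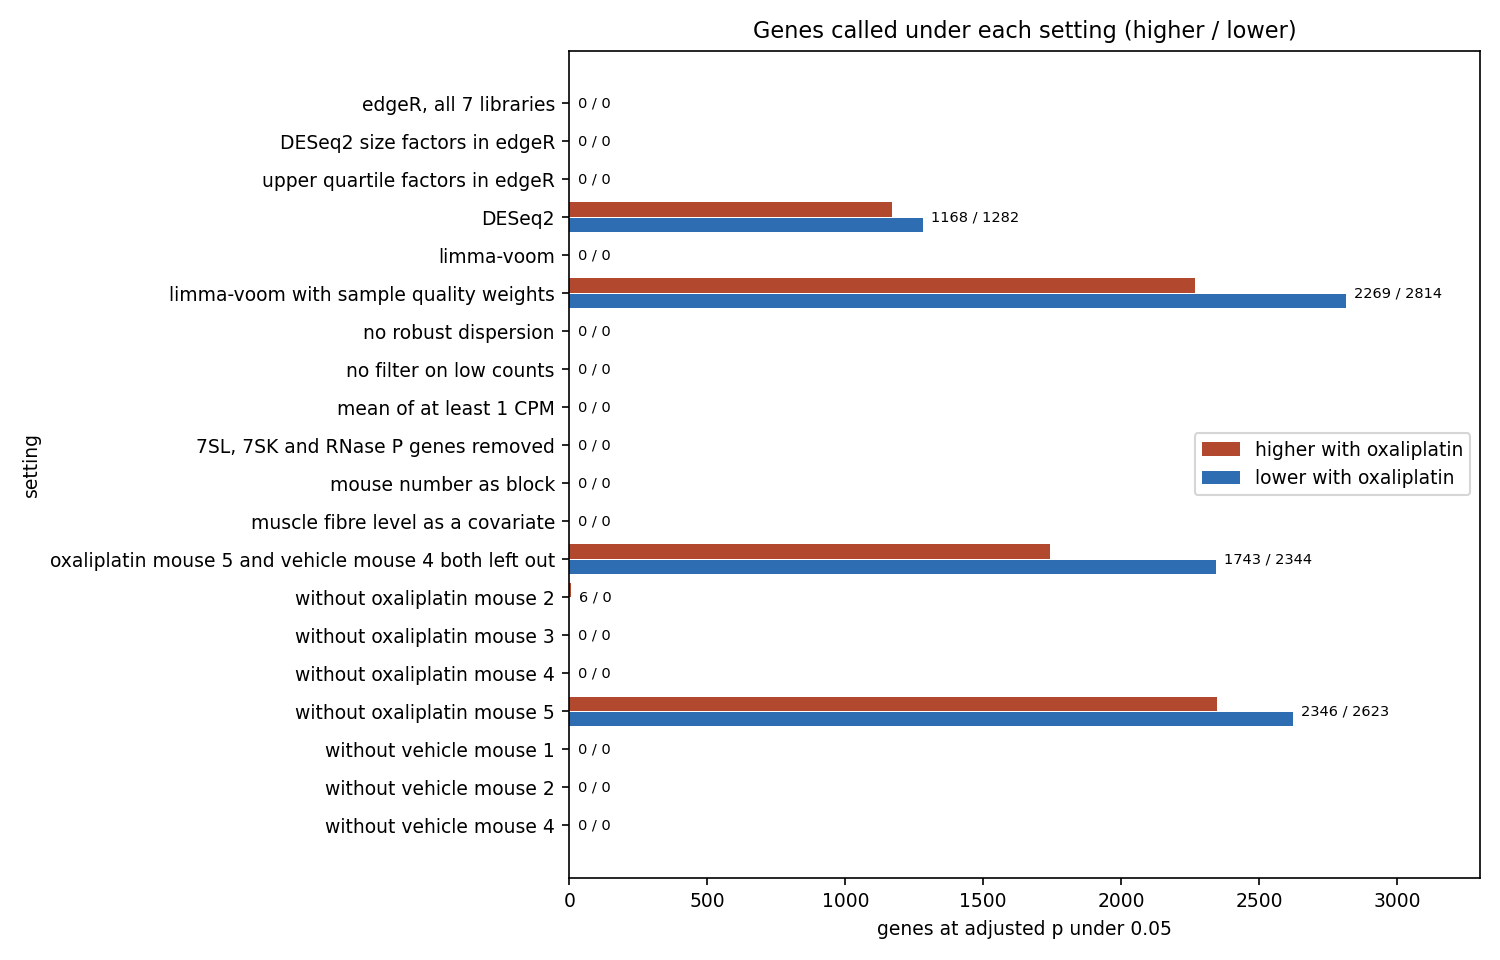
Number of genes at an adjusted p under 0.05 (horizontal axis) under each setting (vertical axis), higher with oxaliplatin in red and lower in blue. edgeR with all 7 libraries gave 0 and 0, and edgeR without oxaliplatin mouse 5 gave 2346 higher and 2623 lower.

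A first group of genes differed in all 4 oxaliplatin mice, mouse 5 included. Sfrp5, whose product adipocytes secrete and which blocks Wnt signals, was at 18.1, 26.3, 24.1 and 20.1 CPM in oxaliplatin mice 2 to 5, against 79.1, 134 and 123 CPM in vehicle mice 1, 2 and 4. Every oxaliplatin library was far below the lowest vehicle library, and mouse 5 lay among the other oxaliplatin mice (-2.34 ± 0.22 on the log2 scale, adjusted p = 0.0751 by edgeR). Gramd1b encodes a protein that carries cholesterol from the plasma membrane to the endoplasmic reticulum. It was at 112, 95, 87.1 and 87.4 CPM in the oxaliplatin mice, against 39.7, 38.7 and 31.4 CPM in the vehicle mice, again with no overlap (1.38 ± 0.15, adjusted p = 0.0751). On GRCm38, Sfrp5 (ENSMUSG00000018822) lies on chromosome 19 from 42197971 to 42202252 on the minus strand, and Gramd1b (ENSMUSG00000040111) on chromosome 9 from 40293233 to 40531383 on the minus strand. Fgf1, a growth factor of adipose tissue, was at 7.63, 6.15, 6.83 and 9.99 CPM with oxaliplatin and 31.5, 27.9 and 31.6 CPM with vehicle (-1.99 ± 0.18). Il4ra, the receptor chain shared by interleukins 4 and 13, was at 146, 129, 103 and 111 CPM with oxaliplatin and 41.8, 51.1 and 49.9 CPM with vehicle (1.36 ± 0.16). All 4 of these genes passed without oxaliplatin mouse 5, with adjusted p = 0.0014 for Sfrp5, 0.00129 for Gramd1b, 0.000351 for Fgf1 and 0.00176 for Il4ra. Over the 19 alternative settings their adjusted p ran from 5.45e-17 to 0.263.

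The other genes of smallest p among those whose groups did not overlap were of several kinds. Higher with oxaliplatin were Apoc1, an apolipoprotein, at 214, 140.1, 224 and 104 CPM against 38.4, 32.1 and 24.9 CPM with vehicle (2.42 ± 0.32), and Upp1, the uridine phosphorylase, at 7.19, 7.8, 7.12 and 4.35 CPM against 1.27, 1.44 and 1.1 CPM (2.37 ± 0.28). In Upp1 mouse 5 had the lowest of the 4 oxaliplatin values and was still above every vehicle value. Clca3a1, of the family of chloride channel regulators, was at 15.4, 21, 15.7 and 8.29 CPM with oxaliplatin and 2.14, 2.43 and 1.65 CPM with vehicle (2.86 ± 0.35). Jaml, an adhesion molecule of leukocytes, was at 3.66 to 7.69 CPM with oxaliplatin and 0.693 to 0.868 CPM with vehicle (2.85 ± 0.38). Sh2d5 was at 1.59 to 3.02 CPM with oxaliplatin and 0.0578 to 0.267 CPM with vehicle, and Tmem131l at 40.0 to 46.3 CPM with oxaliplatin and 21.6 to 25.9 CPM with vehicle. Lower with oxaliplatin was Unc79, which encodes a subunit of the sodium leak channel complex, at 0.216, 0.275, 0.337 and 0.235 CPM against 2.67, 1.68 and 3.69 CPM with vehicle (-3.29 ± 0.36). Il17re, a receptor chain for interleukin 17C, was at 1.73, 1.87, 2.31 and 3.17 CPM with oxaliplatin and 16.4, 13.2 and 9.08 CPM with vehicle (-2.50 ± 0.29). Map6, a microtubule stabiliser, gave -1.12 ± 0.14, with 11 to 15.1 CPM in the oxaliplatin mice and 27.7 to 29.2 CPM in the vehicle mice. Ccdc9b gave -1.38 ± 0.14, Epb41l4a -1.46 ± 0.19 and Efcab8 -1.75 ± 0.23. None of these passed over the 7 libraries, each with an adjusted p of 0.0751.

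**Figure D2:**
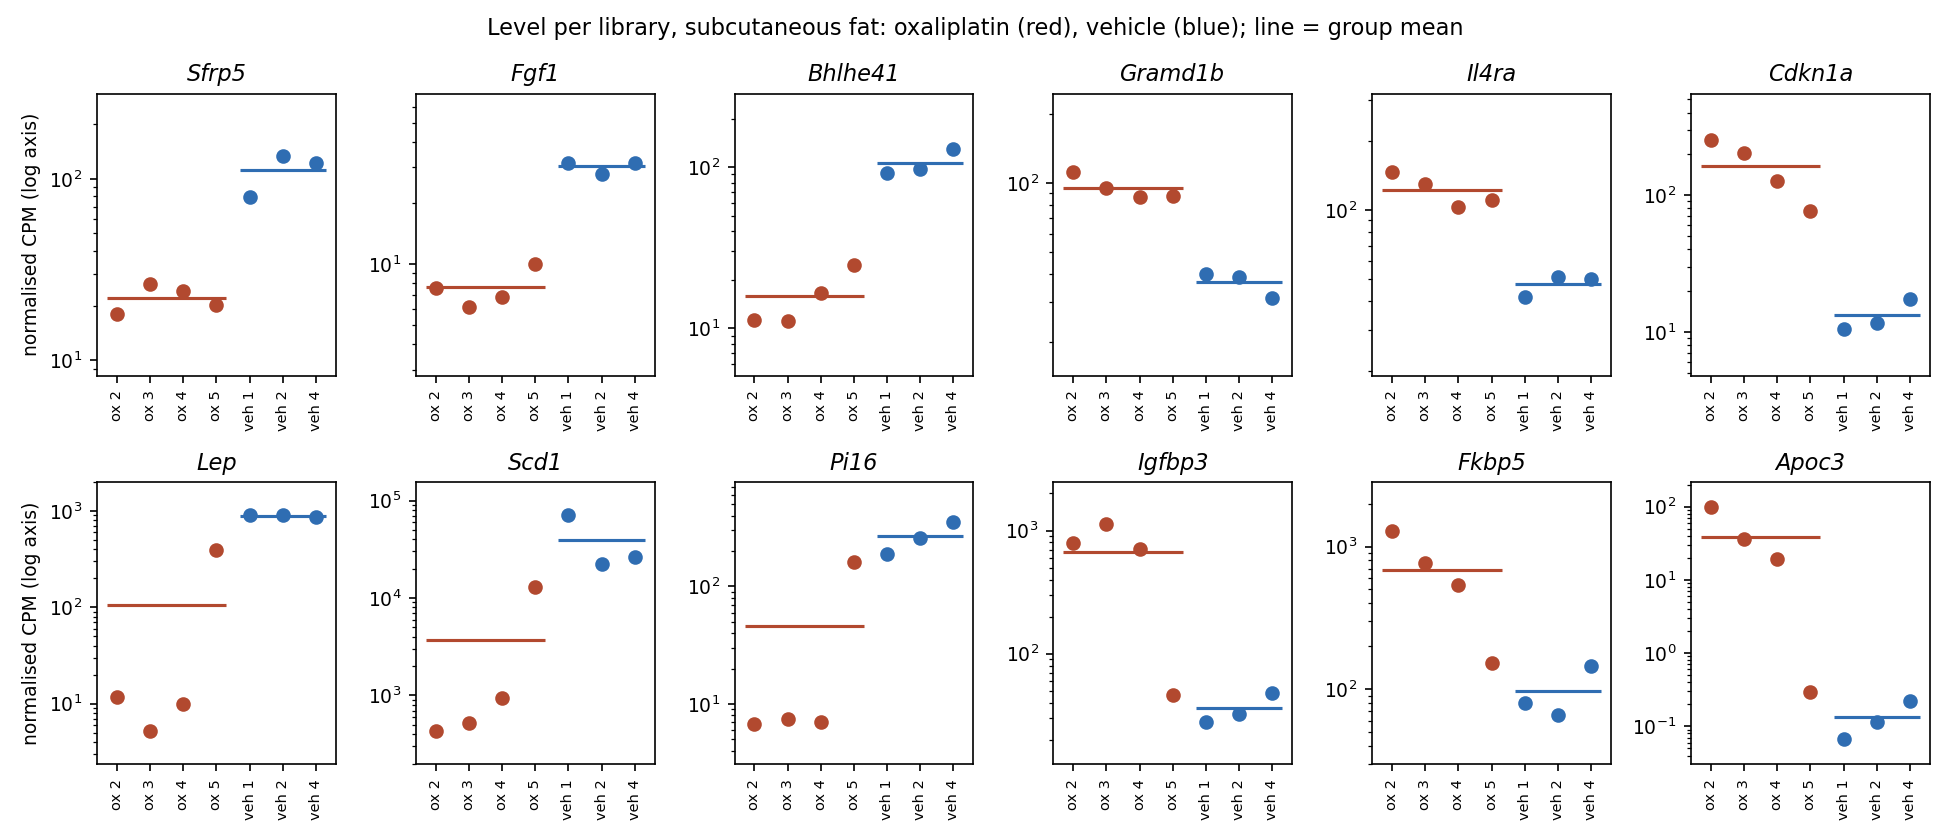
Level of 12 genes in each library in normalised CPM on log axes, oxaliplatin mice in red at the left of each panel and vehicle mice in blue at the right, with group means as lines. In the upper row all 4 oxaliplatin mice lie apart from the vehicle mice, and in the lower row oxaliplatin mouse 5 lies near the vehicle mice, with Lep at 394 CPM in mouse 5 and 5.16 to 11.7 CPM in oxaliplatin mice 2 to 4.

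A second group of genes differed mainly in oxaliplatin mice 2 to 4, with mouse 5 nearer to the vehicle mice. Lep, the leptin gene, was at 11.7, 5.16 and 9.91 CPM in oxaliplatin mice 2, 3 and 4 and at 394 CPM in mouse 5, against 909, 911 and 875 CPM in the vehicle mice. The vehicle values were close together, mouse 5 was below all of them, and the other oxaliplatin mice were lower by more than an order of magnitude. Over the 7 libraries the log2 fold change was -3.10 ± 1.49 (adjusted p = 0.23), and without oxaliplatin mouse 5 it was -6.65 ± 0.35 (adjusted p = 0.0002). Lep (ENSMUSG00000059201) lies on chromosome 6 from 29060220 to 29073877 on the plus strand. The imprinted gene Nnat, which encodes neuronatin, a small membrane protein of the endoplasmic reticulum, was at 7.14, 8.4 and 7.45 CPM in oxaliplatin mice 2 to 4, 766 CPM in mouse 5 and 1186, 1105 and 700.3 CPM in the vehicle mice. Without oxaliplatin mouse 5 Nnat was called lower (-7.02 ± 0.28, adjusted p = 8.43e-05). Over the alternatives the adjusted p of Lep and Nnat ran from 7.67e-05 to 0.551.

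Of the 15 tested adipokine genes, 10 lay below 0 and 5 above, with a median log2 fold change of -0.84 that was -0.28 without vehicle mouse 1, -0.47 without oxaliplatin mouse 2 and -0.49 without oxaliplatin mouse 3. The groups did not overlap in 6 that were lower and 2 that were higher, and without oxaliplatin mouse 5, 8 were called lower and 3 higher. The shares over all genes were 11.2% and 10.3% without overlap, and 13.5% and 12.0% called. Rbp4, a retinol carrier, was at 17.8, 24.3, 16.6 and 68.5 CPM with oxaliplatin and 217, 101 and 123 CPM with vehicle (-2.21 ± 0.56), and mouse 5 was the highest of the oxaliplatin mice. Npr3, the receptor that clears natriuretic peptides, was at 53.6, 42.3 and 19.9 CPM in oxaliplatin mice 2 to 4, 311 CPM in mouse 5 and 1612, 1051 and 839.9 CPM with vehicle. In the other direction, Cfd, the complement factor adipsin, was at 10298, 10477, 7386 and 9756 CPM with oxaliplatin and 4652, 6321 and 4606 CPM with vehicle (0.87 ± 0.25). Agt, angiotensinogen, was at 542, 299, 118 and 32.1 CPM with oxaliplatin and 5.21, 12.6 and 28.4 CPM with vehicle (4.01 ± 1.08), spread widely within both groups. Adiponectin gave -0.35 ± 0.25 (adjusted p = 0.387), and Pparg, the nuclear receptor that drives adipocyte formation, 0.39 ± 0.23, with overlapping groups in both.

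Of 22 lipogenesis genes, 15 lay below 0 and 7 above (median -0.81), 8 had oxaliplatin libraries all below vehicle, and without oxaliplatin mouse 5, 9 were called lower and 4 higher. Over all genes 11.2% lay below vehicle in every oxaliplatin library, and 13.5% and 12.0% were called lower and higher. Scd1, the stearoyl-CoA desaturase, was at 433, 521 and 938 CPM in oxaliplatin mice 2 to 4, 12993 CPM in mouse 5 and 70389, 22517 and 26288 CPM in the vehicle mice. Mouse 5 was below all vehicle mice and well above the other oxaliplatin mice. Scd1 gave -3.42 ± 1.32 over the 7 libraries (adjusted p = 0.166) and -5.98 ± 0.63 without oxaliplatin mouse 5 (adjusted p = 0.00169, and 0.00169 to 0.333 over the alternatives). It lies on chromosome 19 from 44394455 to 44407879 on the minus strand (ENSMUSG00000037071). Fasn, the fatty acid synthase, was at 968, 450.5, 2476 and 3817 CPM with oxaliplatin and 15558, 7905 and 5239 CPM with vehicle (-2.31 ± 0.74). Scd2, a second desaturase, was at 144, 152, 178 and 229 CPM with oxaliplatin and 688, 448 and 446 CPM with vehicle (-1.58 ± 0.24), and here mouse 5 was close to the other oxaliplatin mice. Me1 and Acly, which supply NADPH and acetyl-CoA for lipogenesis, gave -1.62 ± 0.33 and -1.15 ± 0.32. In the other direction, Acacb, the acetyl-CoA carboxylase of the mitochondrial surface, was higher in oxaliplatin mice 2 to 4, at 3115, 2627, 2662 and 377 CPM with oxaliplatin and 750.1, 317 and 655 CPM with vehicle, while Acaca, the cytosolic form, gave -0.69 ± 0.47 with overlapping groups. Elovl3, a fatty acid elongase, was at 10.9, 7.19, 7.45 and 0.118 CPM with oxaliplatin and 0.401, 0.116 and 0.33 CPM with vehicle, high in oxaliplatin mice 2 to 4 alone.

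Of 19 genes of fatty acid uptake and triglyceride synthesis, 12 lay below 0 (median -0.35, but -0.11 without vehicle mouse 1 and -0.23 without oxaliplatin mouse 3 or 4), and without oxaliplatin mouse 5, 8 were called lower and 3 higher. Agpat2, an acyltransferase of triglyceride synthesis, was at 115, 102, 161 and 269 CPM with oxaliplatin and 589.9, 404 and 377 CPM with vehicle (-1.50 ± 0.36), and the fatty acid transporter Cd36 gave -0.91 ± 0.27. Slc27a1, another fatty acid transporter, was higher in oxaliplatin mice 2 to 4, at 3673, 3105, 1854 and 718 CPM with oxaliplatin and 851, 407 and 502 CPM with vehicle. Of 19 genes of lipolysis and the lipid droplet, 13 lay below 0 (median -0.44, and -0.85 without oxaliplatin mouse 5), and without oxaliplatin mouse 5, 9 were called lower and 3 higher. For both lists the shares over all genes were 13.5% called lower and 12.0% called higher. Plin4, a droplet coat protein, was at 2502, 2144, 2117 and 4784 CPM with oxaliplatin and 7662, 6568 and 6639.7 CPM with vehicle (-1.27 ± 0.33). Lipe, the hormone-sensitive lipase, gave -0.94 ± 0.30. Adrb1, the beta-1 adrenergic receptor, was at 0.595, 1.43, 1.44 and 4.35 CPM with oxaliplatin and 21.6, 8.78 and 32.4 CPM with vehicle (-3.42 ± 0.69), without overlap.

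The mean level of the cholesterol synthesis genes was lower in all 4 oxaliplatin mice than in any vehicle mouse, while single members varied. The list level, which is the mean log2 CPM of its members minus the vehicle mean, was -0.42, -0.54, -0.56 and -0.47 in oxaliplatin mice 2 to 5 and 0.04, 0.00 and -0.04 in vehicle mice 1, 2 and 4. Of its 24 genes 19 lay below 0 (median -0.53), 11 had all oxaliplatin libraries below vehicle, and without oxaliplatin mouse 5, 10 were called lower and 2 higher. Over all genes 11.2% lay below vehicle in every oxaliplatin library, and 13.5% and 12.0% were called lower and higher. Nsdhl, which removes the methyl groups of the sterol nucleus, was at 6.27, 6.42, 8.99 and 12.2 CPM with oxaliplatin and 27.4, 19.5 and 19.9 CPM with vehicle (-1.39 ± 0.27). Hsd17b7, which acts in the same steps, gave -1.03 ± 0.17, and Sc5d, the sterol desaturase, -1.87 ± 0.41. Insig1, which holds back the activation of the sterol-regulated factors, was at 60.1, 78.1, 78.2 and 170.5 CPM with oxaliplatin and 334, 273 and 313 CPM with vehicle (-1.66 ± 0.35). Cyp51, the lanosterol demethylase, went the other way, at 130.1, 91.2, 51.4 and 16 CPM with oxaliplatin and 16, 19.8 and 17.8 CPM with vehicle (2.01 ± 0.63). Of 14 sterol transport genes 11 lay above 0 (median 0.68), 4 without overlap, and without oxaliplatin mouse 5, 8 were called higher and 1 lower. Besides Gramd1b they include Abcg1, a cholesterol exporter, at 244, 185, 107 and 73.1 CPM with oxaliplatin and 58.3, 54.8 and 43.3 CPM with vehicle (1.55 ± 0.41), and Abca1, another exporter (0.63 ± 0.22).

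Nuclear genes of the respiratory chain were lower as a group and by small amounts. Of 55 subunit genes 52 lay below 0, where 47.6% of all genes did (median -0.44), and 35 had all oxaliplatin libraries below vehicle, where 11.2% of all genes did. Without oxaliplatin mouse 5, 30 were called lower and 1 higher, against 13.5% and 12.0% of all genes. The list level was -0.44, -0.40, -0.51 and -0.37 in oxaliplatin mice 2 to 5 and 0.07, -0.26 and 0.18 in vehicle mice 1, 2 and 4, so vehicle mouse 2 was close to the oxaliplatin mice. Ndufb8, of complex I, was at 48.2, 51.1, 48.1 and 65 CPM with oxaliplatin and 101, 78.8 and 105 CPM with vehicle (-0.84 ± 0.16). Cox7c, of complex IV, was at 50.6, 52.5, 52 and 53.4 CPM with oxaliplatin and 87.2, 69.5 and 91.1 CPM with vehicle (-0.66 ± 0.12). Without both oxaliplatin mouse 5 and vehicle mouse 4, which was rich in muscle fibre transcripts, 16 were called lower and 2 higher. The 13 mitochondrially encoded genes had a median of -0.48 (-0.72 without vehicle mouse 2 and -0.31 without vehicle mouse 4), but vehicle mouse 2 had a level of -0.61 and oxaliplatin mouse 2 one of 0.07, and none passed without oxaliplatin mouse 5, with 1 lower at an unadjusted p under 0.05 over the 7 libraries and 0 calls by DESeq2.

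In other pathways of fuel use, most fatty acid oxidation and glycolysis genes lay below 0, while single genes went either way. Over all genes 47.6% lay below 0, and without oxaliplatin mouse 5, 13.5% and 12.0% were called lower and higher. Of 21 fatty acid oxidation genes 15 lay below 0 (median -0.25, but -0.12 without vehicle mouse 1 and -0.42 without vehicle mouse 2), and 6 were called lower and 1 higher without oxaliplatin mouse 5. The mitochondrial enzymes Acaa2 and Decr1 gave -1.14 ± 0.28 and -0.93 ± 0.26, while Ehhadh, of the peroxisome, was at 550.2, 480.1, 99.6 and 40.3 CPM with oxaliplatin and 59.8, 33.7 and 46.3 CPM with vehicle. Of 19 genes of branched-chain amino acid breakdown 12 lay above 0 (median 0.23, but 0.12 without oxaliplatin mouse 2), among them Bcat2, the mitochondrial aminotransferase, at 589, 385, 340.0 and 208 CPM with oxaliplatin and 129, 140.1 and 122 CPM with vehicle (1.55 ± 0.33). Of 19 glycolysis genes 17 lay below 0 (median -0.60, and -0.39 without vehicle mouse 4), and of the 18 still tested without oxaliplatin mouse 5, 6 were called lower and 1 higher. Part of this list is also high in muscle fibres, and vehicle mouse 4 had a level of 0.59, against -0.26 and -0.33 in the other vehicle mice. Pfkfb3, a kinase that makes the activator of glycolysis, was at 237, 220.2, 304 and 793 CPM with oxaliplatin and 949, 1152 and 1138 CPM with vehicle (-1.47 ± 0.46), and was called lower without oxaliplatin mouse 5 (adjusted p = 0.000783, and 0.000783 to 0.288 over the alternatives). Slc2a1, the glucose transporter GLUT1, was higher, at 49.9, 48.4, 36.8 and 23.2 CPM with oxaliplatin and 14.8, 15.7 and 15 CPM with vehicle (1.39 ± 0.27). Of the thermogenic and beige genes, Ucp1, the uncoupling protein of brown fat, was too low to be tested, at 0 to 0.11 CPM with oxaliplatin and 0.404 to 6.49 CPM with vehicle. Kcnk3, a potassium channel of thermogenic adipocytes, was at 632, 411, 314 and 40.2 CPM with oxaliplatin and 81.3, 44.3 and 48.3 CPM with vehicle, and Cox8b, a muscle and brown fat subunit of complex IV, was at 6.33, 8.07, 33.9 and 20.8 CPM with oxaliplatin and 56.5, 30.3 and 76.2 CPM with vehicle. The list as a whole had 7 genes above 0 and 8 below.

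Cytosolic ribosomal protein genes were higher without exception. All 77 lay above 0 (median 0.42, against 0.03 over all genes and 52.4% of all genes above 0), 57 had all oxaliplatin libraries above vehicle, and 45 were called higher and 0 lower without oxaliplatin mouse 5. Over all genes 10.3% lay above vehicle in every oxaliplatin library, and 12.0% and 13.5% were called higher and lower. Their level was 0.49, 0.57, 0.51 and 0.21 in oxaliplatin mice 2 to 5 and -0.19, 0.13 and 0.06 in vehicle mice 1, 2 and 4, with mouse 5 between the other oxaliplatin mice and vehicle mouse 2. Rpl12, of the large subunit, was at 229, 259.6, 244 and 169 CPM with oxaliplatin and 108, 141 and 132 CPM with vehicle (0.83 ± 0.19), and Rps27, of the small subunit, at 106, 109, 94.6 and 64.1 CPM with oxaliplatin and 44.9, 55.1 and 53.6 CPM with vehicle (0.87 ± 0.20). These genes have many processed pseudogenes, so single values are uncertain where the counting could split reads. Small nucleolar RNAs guide the chemical modification of ribosomal RNA. All 9 that could be tested lay above 0 (median 0.76), 5 without overlap, and 4 were called higher without oxaliplatin mouse 5, against 10.3% and 12.0% of all genes. Snord22 was at 8.82, 9.99, 10.2 and 9.17 CPM with oxaliplatin and 4.07, 4.04 and 3.41 CPM with vehicle (1.31 ± 0.16). It lies within Snhg1, a non-coding host gene on the same strand, which was also higher at 32.6, 26, 17.4 and 10.6 CPM with oxaliplatin and 10.5, 9.47 and 7.6 CPM with vehicle (1.23 ± 0.38). Snora73a and Snora73b, within Rcc1 and Snhg3, gave 1.12 ± 0.25 and 1.12 ± 0.21, whereas Rcc1 itself gave 0.03 ± 0.20 and Snhg3 1.01 ± 0.52, each with overlapping groups. Gm17300, a non-coding gene over both on the opposite strand, averaged 46.8 CPM with oxaliplatin and 22.6 CPM with vehicle (1.05 ± 0.22), without overlap. The labels do not say how reads shared by a small RNA and its host were counted, so the values of such pairs are uncertain.

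**Figure D3:**
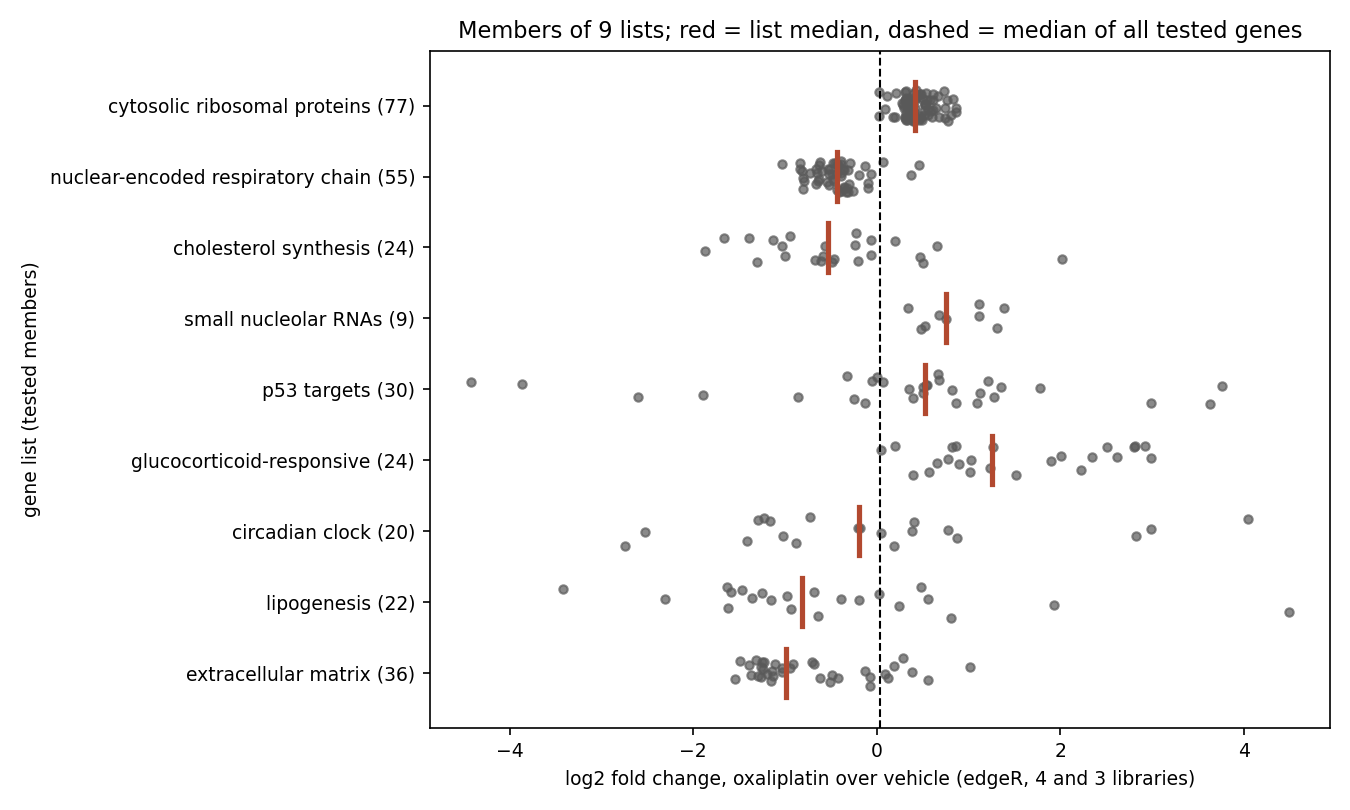
Log2 fold change, oxaliplatin over vehicle, of each tested member of 9 gene lists (points), with the list median in red and the median of all tested genes, 0.03, as a dashed line. The 77 ribosomal protein genes all lie above 0 and 52 of the 55 respiratory chain genes lie below 0.

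Targets of p53, the factor that DNA damage activates, were higher in part. Of 30 genes 21 lay above 0 (median 0.52), 9 had all oxaliplatin libraries above vehicle, and without oxaliplatin mouse 5, 10 were called higher and 1 lower. Over all genes 10.3% lay above vehicle in every oxaliplatin library, and 12.0% and 13.5% were called higher and lower. The list level was 0.36, 0.48, 0.38 and 0.48 in oxaliplatin mice 2 to 5 and 0.01, -0.14 and 0.13 in vehicle mice 1, 2 and 4, without overlap and with mouse 5 as high as the others. Cdkn1a, the cell cycle inhibitor p21, was at 251, 201, 126 and 76.4 CPM with oxaliplatin and 10.5, 11.6 and 17.5 CPM with vehicle (3.63 ± 0.47, adjusted p = 0.0751). Gdf15, a stress hormone that acts on the hindbrain, was at 4.65, 4.78, 5.96 and 5.41 CPM with oxaliplatin and 0.401, 1.16 and 0.385 CPM with vehicle (2.99 ± 0.42). Bax, which permeabilises mitochondria in cell death, was at 25.9, 26.1, 28.2 and 33.9 CPM with oxaliplatin and 16, 16.7 and 15.5 CPM with vehicle (0.83 ± 0.13), highest in mouse 5. Mdm2, the ligase that degrades p53, was at 49.1, 51, 53 and 45.5 CPM with oxaliplatin and 34, 31.2 and 39.6 CPM with vehicle (0.51 ± 0.12). Trp53inp1, a cofactor of p53, was at 677, 637, 317 and 65.6 CPM with oxaliplatin and 31, 32.2 and 30.8 CPM with vehicle (3.76 ± 0.77). The 4 genes of the list that were lower at an unadjusted p under 0.05 were Phlda3 (-1.89 ± 0.46), whose groups did not overlap, and Ddit4l, Ak1 and Perp. Ddit4l was at 1.67, 1.04 and 79.7 CPM and Ak1 at 17.6, 11.7 and 401 CPM in vehicle mice 1, 2 and 4, so both were highest in the library rich in muscle fibre transcripts.

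Genes of the unfolded protein response, the reaction to misfolded protein in the endoplasmic reticulum, were mostly higher. Of 20 genes 17 lay above 0 (median 0.44), 8 without overlap, and 10 were called higher and 1 lower without oxaliplatin mouse 5. The shares over all genes were 10.3% higher without overlap, and 12.0% and 13.5% called higher and lower. Manf, a secreted protective factor, was at 33.3, 35, 27.7 and 28.9 CPM with oxaliplatin and 17.2, 20.3 and 19.3 CPM with vehicle (0.72 ± 0.13), and the chaperone Hyou1 gave 0.72 ± 0.19. In the integrated stress response, the reaction to amino acid lack, 15 of 20 lay above 0 (median 0.57, and 0.36 without oxaliplatin mouse 3), and 8 were called higher and 1 lower without oxaliplatin mouse 5. The amino acid transporter chain Slc3a2 was at 449, 311, 194 and 92.9 CPM with oxaliplatin and 70.9, 89 and 83.7 CPM with vehicle, and its partner Slc7a5 at 73.6, 31.8, 13.1 and 10.3 CPM with oxaliplatin and 5.14, 5.08 and 6.27 CPM with vehicle. In both, the oxaliplatin mice ranked 2, 3, 4 and 5 from high to low. Of 26 genes of the NRF2 and glutathione list 16 lay above 0 (median 0.21), and 8 were called higher and 1 lower without oxaliplatin mouse 5. Gpx3, the secreted glutathione peroxidase, was at 3763, 2493, 2791 and 579 CPM with oxaliplatin and 259, 452 and 529.8 CPM with vehicle (2.54 ± 0.63), and Hmox1, the haem oxygenase, at 40.6 to 327 CPM with oxaliplatin and on average 27.3 ± 2.62 CPM with vehicle (SD, n = 3).

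Glucocorticoid-responsive genes, which corticosteroid hormones induce, were higher in oxaliplatin mice 2 to 4. All 24 tested genes lay above 0 (median 1.25), 7 had all oxaliplatin libraries above vehicle, and 15 were called higher and 0 lower without oxaliplatin mouse 5. Over all genes 10.3% lay above vehicle in every oxaliplatin library, and 12.0% and 13.5% were called higher and lower. The list level was 2.19, 1.92, 1.22 and 0.22 in oxaliplatin mice 2 to 5 and -0.17, -0.21 and 0.38 in vehicle mice 1, 2 and 4, so it overlapped between mouse 5 and vehicle mouse 4. Fkbp5, a chaperone of the glucocorticoid receptor, was at 1287, 762, 534 and 152 CPM with oxaliplatin and 79.8, 65.6 and 146 CPM with vehicle (2.81 ± 0.71). Ddit4, an inhibitor of the growth kinase mTOR, was at 621, 574, 258 and 43.1 CPM with oxaliplatin and 43.5, 39.8 and 58.4 CPM with vehicle (2.99 ± 0.83). The metal-binding protein gene Mt1 was at 836, 371, 185 and 55.2 CPM with oxaliplatin and 63.6, 70.6 and 79.3 CPM with vehicle (2.35 ± 0.82), and Mt2 at 486, 188, 76.7 and 22.5 CPM with oxaliplatin and 18.9, 38.8 and 44.3 CPM with vehicle (2.51 ± 0.98). Mertk, a receptor for the uptake of dead cells, gave 1.27 ± 0.24, and Nfkbia, which holds NF-kappaB in the cytoplasm, 1.51 ± 0.34, with no overlap in either gene. Of 14 FOXO-responsive genes 13 lay above 0 (median 0.74), and 9 were called higher and 1 lower without oxaliplatin mouse 5. Depp1, of this list, was at 235, 193, 167 and 48.8 CPM with oxaliplatin and 43.3, 17.5 and 33.7 CPM with vehicle (2.36 ± 0.57), and the factor Foxo1 itself at 299, 222, 213 and 198 CPM with oxaliplatin and 148, 135 and 149 CPM with vehicle (0.69 ± 0.17).

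In insulin and growth factor signalling 11 of 17 genes lay above 0, and 5 were called higher and 5 lower without oxaliplatin mouse 5. The shares over all genes were 12.0% called higher and 13.5% called lower. Igfbp3, which binds insulin-like growth factors in blood, was at 795, 1127 and 711 CPM in oxaliplatin mice 2 to 4, 45.9 CPM in mouse 5 and 27.8, 32.5 and 47.8 CPM in the vehicle mice. Its log2 fold change was 4.60 ± 0.30 without oxaliplatin mouse 5 (adjusted p = 0.000351, and 5.73e-06 to 0.282 over the alternatives), and mouse 5 was at the vehicle level. Akt2, the insulin-responsive kinase of adipocytes, was at 138, 154, 159.9 and 290.1 CPM with oxaliplatin and 456, 384 and 426 CPM with vehicle (-1.19 ± 0.27), and its relative Akt1 went the other way (0.67 ± 0.19). Grb14, an adaptor that inhibits the insulin receptor, was at 1.46, 1.81, 1.11 and 14.1 CPM with oxaliplatin and 84, 69.3 and 33.7 CPM with vehicle (-3.76 ± 0.95). Of 18 acute phase and cytokine receptor genes 13 lay above 0 (median 0.48), and 6 were called higher and 2 lower without oxaliplatin mouse 5. Pim1, a kinase induced by cytokines, was at 56.3, 58.1, 47.7 and 24.6 CPM with oxaliplatin and 18.6, 17.8 and 17.3 CPM with vehicle (1.38 ± 0.29). The list level of 0.64, 0.58, 0.39 and 0.56 in oxaliplatin mice 2 to 5 was above that of -0.23, 0.10 and 0.12 in the vehicle mice, with mouse 5 among the other oxaliplatin mice. Hif3a, a member of the hypoxia factor family that is also on the glucocorticoid list, was at 62.9, 40.7, 24 and 9.23 CPM with oxaliplatin and 5.14, 4.56 and 7.04 CPM with vehicle (2.61 ± 0.62).

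Circadian clock genes differed in both directions. In this loop Arntl and Clock or Npas2 switch on genes with E-boxes in their promoters, among them the Per, Cry, Nr1d, Bhlhe and Dbp genes, whose products repress the loop or act on its output. Of the 20 genes 9 had all oxaliplatin libraries below vehicle and 2 had all above, and without oxaliplatin mouse 5, 9 were called lower and 5 higher. The shares over all genes were 11.2% below and 10.3% above without overlap, and 13.5% and 12.0% called lower and higher. The 2 genes above were thus near the share of all genes. The promoter windows of RefSeq (GRCm38.p6, 250 bases before and 50 after the start) are printed for Ciart and Bhlhe41, the clock genes of smallest p, with the E-box CACGTG in capitals. That of Arntl, the gene of the opposite arm, is printed with AGGTCA in capitals. AGGTCA is a short element of nuclear receptors in general, and the search was not specific to the repressors Nr1d1 and Nr1d2.
Ciart (chr3:95882179-95882478, minus strand, 5′ to 3′): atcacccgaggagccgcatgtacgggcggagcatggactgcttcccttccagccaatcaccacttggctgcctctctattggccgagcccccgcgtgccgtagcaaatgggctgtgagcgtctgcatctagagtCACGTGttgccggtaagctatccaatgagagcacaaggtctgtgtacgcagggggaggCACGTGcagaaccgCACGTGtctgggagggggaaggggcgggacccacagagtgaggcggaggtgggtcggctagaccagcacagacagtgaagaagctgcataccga
Bhlhe41 (chr6:145865371-145865670, minus strand, 5′ to 3′): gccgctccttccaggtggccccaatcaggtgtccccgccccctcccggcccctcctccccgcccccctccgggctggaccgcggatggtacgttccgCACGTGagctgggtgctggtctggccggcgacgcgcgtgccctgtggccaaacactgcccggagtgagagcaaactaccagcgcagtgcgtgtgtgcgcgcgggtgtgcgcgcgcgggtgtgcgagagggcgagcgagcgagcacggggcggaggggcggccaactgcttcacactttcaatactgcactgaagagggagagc
Arntl (chr7:113207261-113207560, plus strand, 5′ to 3′): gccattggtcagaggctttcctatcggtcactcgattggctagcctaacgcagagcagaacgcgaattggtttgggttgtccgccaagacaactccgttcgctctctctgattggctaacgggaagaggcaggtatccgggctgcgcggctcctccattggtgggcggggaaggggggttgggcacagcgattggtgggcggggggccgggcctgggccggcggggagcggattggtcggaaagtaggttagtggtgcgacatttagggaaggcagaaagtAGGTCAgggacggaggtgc
The E-box occurs 3 times in the Ciart window and 1 time in that of Bhlhe41, and it has no match in either of the 2 Arntl windows, of which the one printed holds AGGTCA and the other does not. Among 17 clock genes with a window, 5 (29.4%) hold an E-box, namely Ciart, Bhlhe41, Tef, Cry1 and Per1, against 8.09% of the 27025 genes with a RefSeq window, and 5 (29.4%) hold AGGTCA on either strand, namely Arntl, Clock, Nfil3, Nr1d2 and Per1, against 18.1%. Genes lower with oxaliplatin stand in both sets, as does Per1, whose mean was higher, and Nr1d1, Dbp, Per3 and Npas2 stand in neither. CACGTG reads the same on both strands. The AGGTCA search was chosen after the values were seen. A match describes letters in a window and not a site in use.

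Bhlhe41, a repressor with an E-box in its window, was at 11.3, 11.1, 16.5 and 24.8 CPM with oxaliplatin and 92, 96.8 and 130.1 CPM with vehicle (-2.74 ± 0.31, adjusted p = 0.0751). Ciart, another repressor, was at 5.25, 4.61, 5.0 and 5.76 CPM with oxaliplatin and 14.5, 10.9 and 15.9 CPM with vehicle (-1.41 ± 0.18), and mouse 5 lay with the other oxaliplatin mice. Nr1d1, the repressor REV-ERB-alpha, was at 148, 109, 106 and 239 CPM with oxaliplatin and 287, 454 and 317 CPM with vehicle (-1.23 ± 0.32), and its relative Nr1d2 gave -0.88 ± 0.14. Dbp, an output factor, was at 26.2, 14.6, 33.1 and 128 CPM with oxaliplatin and 323, 260.0 and 289 CPM with vehicle (-2.53 ± 0.70). Per3, Tef, Hlf and Bhlhe40 were also lower in every oxaliplatin library (-1.16 ± 0.25, -0.72 ± 0.16, -1.30 ± 0.33 and -1.02 ± 0.15). In the opposite direction, Arntl (BMAL1), the activator, was at 21.5, 30.7, 22.3 and 5.82 CPM with oxaliplatin and 1.27, 3.58 and 3.63 CPM with vehicle (2.82 ± 0.63), and Npas2, its partner, at 19.8, 17.2, 9.71 and 0.882 CPM with oxaliplatin and 0.734, 0.635 and 0.77 CPM with vehicle (4.05 ± 0.98). In both, mouse 5 was above the vehicle mice but far nearer to them than the other oxaliplatin mice were. Nfil3, a repressor that competes with Dbp, gave 2.98 ± 0.72, and Per1, which is also on the glucocorticoid list, 0.78 ± 0.28. Without oxaliplatin mouse 5, adjusted p was 0.000506 for Bhlhe41, 0.000855 for Dbp, 0.00283 for Arntl and 0.000506 for Npas2, and over the alternatives it ran from 6.3e-13 to 0.282 for these 4 genes. The labels do not give the hour at which tissue was taken.

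Extracellular matrix genes showed a wide gap between mouse 5 and the other oxaliplatin mice. Col3a1, a fibrillar collagen chain, was at 43.3, 74.1 and 69.6 CPM in oxaliplatin mice 2, 3 and 4 and at 5166 CPM in mouse 5, against 2483, 3327 and 3071 CPM in the vehicle mice. Mouse 5 was thus above every vehicle mouse while the other oxaliplatin mice were far below. Col1a1, the main chain of collagen I, was at 33.4, 86.1 and 82.4 CPM in oxaliplatin mice 2 to 4, 2873 CPM in mouse 5 and 1304, 1962 and 1691 CPM with vehicle. Of the 36 genes 29 lay below 0 (median -0.99, and -1.79 without oxaliplatin mouse 5), 4 had all oxaliplatin libraries below vehicle, and 25 were called lower and 1 higher without oxaliplatin mouse 5, and 23 were called lower and 1 higher without both that library and vehicle mouse 4. Over all genes 11.2% lay below vehicle in every oxaliplatin library. The shares called lower were 13.5% without oxaliplatin mouse 5 and 11.5% without both. Without oxaliplatin mouse 5 Col3a1 gave -5.57 ± 0.30 (adjusted p = 0.0002) and Col1a1 -4.62 ± 0.42 (adjusted p = 0.000984), and over the alternatives the adjusted p of both ran from 0.0002 to 0.81. Some matrix genes did not follow. Dcn, the proteoglycan decorin, was at 439.9, 705, 617 and 575 CPM with oxaliplatin and 411, 583 and 543 CPM with vehicle, and Mmp14, a membrane-bound collagenase, was higher in every oxaliplatin library (1.01 ± 0.25). Col12a1 and Col8a1 were lower in all 4 oxaliplatin mice (-0.71 ± 0.17 and -1.39 ± 0.33).

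The markers of progenitors and fibroblasts went the same way. Their summed level was 913, 1509.8, 1319.9 and 12615 CPM in oxaliplatin mice 2 to 5 and 7054, 9641 and 8900.1 CPM in vehicle mice 1, 2 and 4. Without oxaliplatin mouse 5, 11 of 14 were called lower, where 13.5% of all genes were. Over the 7 libraries 0 were lower at an unadjusted p under 0.05, and DESeq2 called 0. Several of these markers are collagens that the matrix list also holds. Pi16, a marker of early progenitors, was at 6.76, 7.41 and 7.07 CPM in oxaliplatin mice 2 to 4, 163 CPM in mouse 5 and 188, 259.8 and 352 CPM in the vehicle mice (-5.23 ± 0.26 and adjusted p = 0.000158 without mouse 5, with 0.000158 to 0.4 over the alternatives). Dpt, dermatopontin, was at 22.9, 32.1 and 22.7 CPM in oxaliplatin mice 2 to 4, 405 CPM in mouse 5 and 604, 569.9 and 520.0 CPM with vehicle. Pdgfra, the receptor that defines these cells, was at 90.3, 167, 107 and 129 CPM with oxaliplatin and 95.6, 163 and 144 CPM with vehicle (-0.12 ± 0.26), so the groups overlapped and the defining receptor was present in every library. Whether the number of such cells differed was not tested. Of 13 fibroblast growth factor genes and receptors 11 lay below 0. Their median was -1.22, but -0.84, -0.86 and -1.81 without oxaliplatin mouse 2, 4 and 5 in turn. Without oxaliplatin mouse 5, 9 were called lower and 1 higher, against 13.5% and 12.0% of all genes. DESeq2 called 3 lower and 2 higher over the 7 libraries. Fgf13, an intracellular member of the family, was at 4.06, 5.0, 2.26 and 7.17 CPM with oxaliplatin and 23.4, 16.5 and 20.4 CPM with vehicle (-2.12 ± 0.36). Klb, the coreceptor for endocrine fibroblast growth factors, was higher, at 112, 105, 69.9 and 50.3 CPM with oxaliplatin and 33.8, 30.7 and 23.4 CPM with vehicle (1.52 ± 0.30). Of 9 Wnt inhibitors 7 lay below 0 (median -1.21, and -0.75 without vehicle mouse 4) and 5 were called lower and 0 higher without oxaliplatin mouse 5, Sfrp5 among them.

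**Figure D4:**
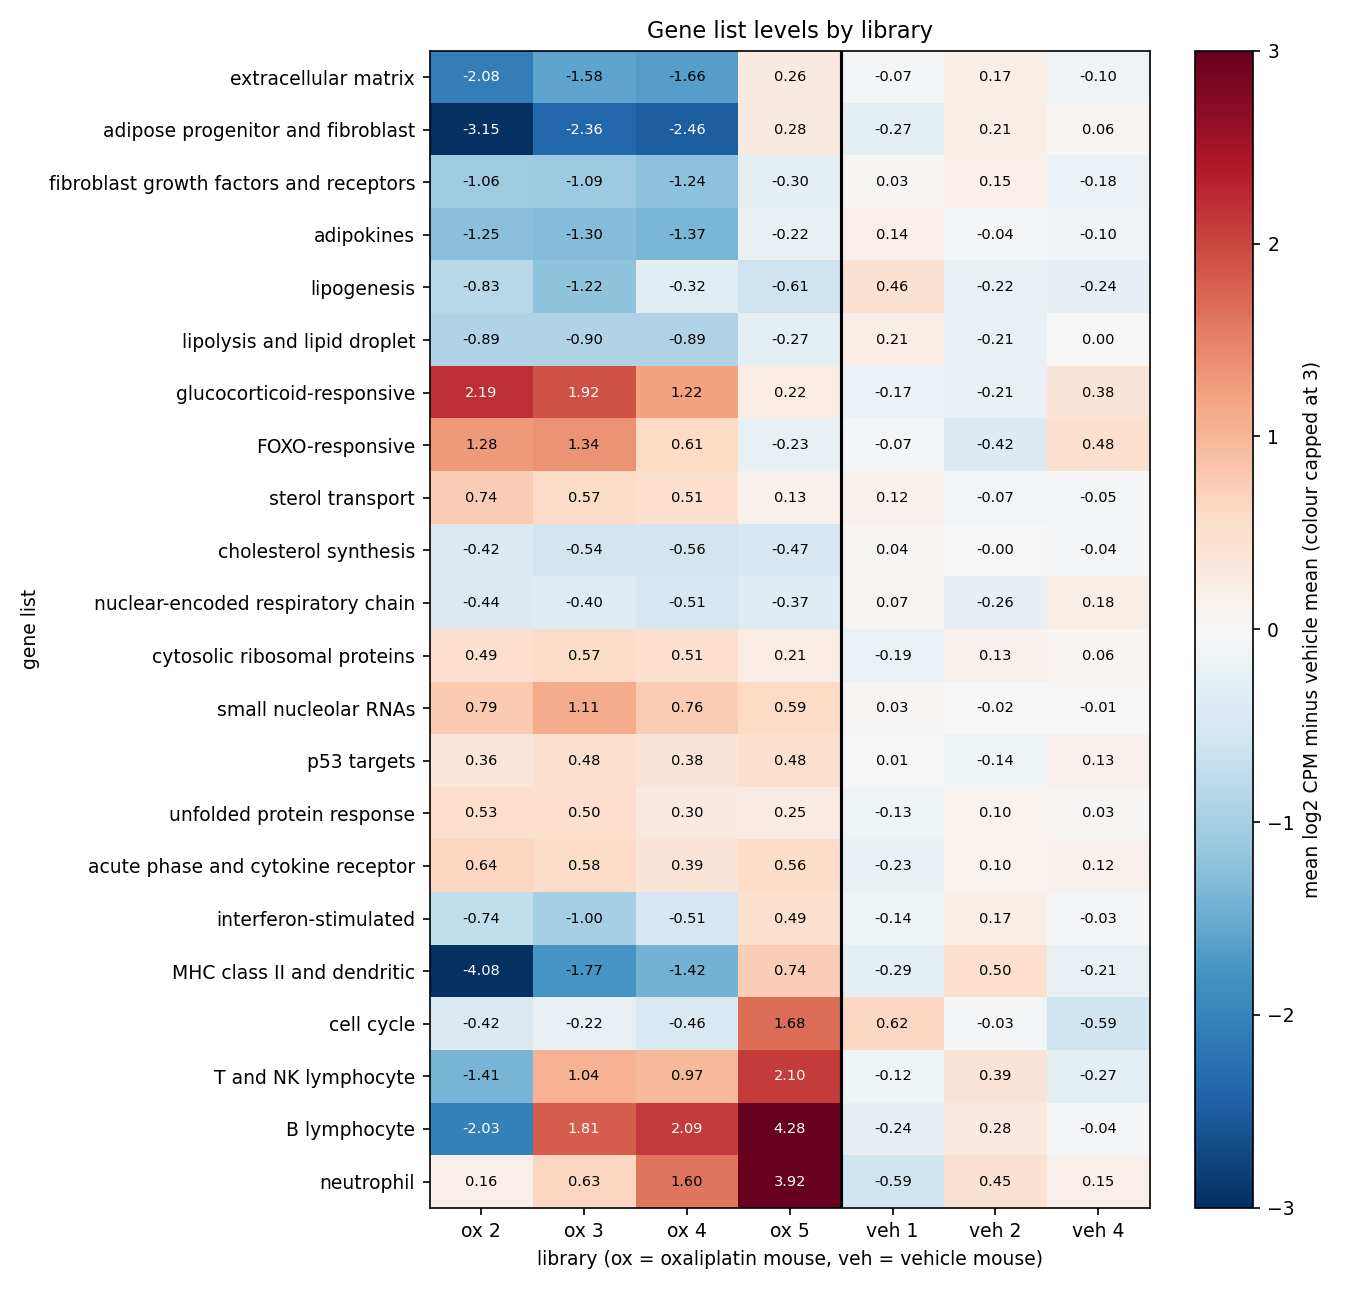
Level of 22 gene lists (rows) in each library (columns, oxaliplatin left of the line and vehicle right of it), as the mean log2 CPM of the members minus the vehicle mean, in colour and as a number in each cell. The matrix list is at -2.08, -1.58 and -1.66 in oxaliplatin mice 2 to 4 and 0.26 in mouse 5, whereas the cholesterol synthesis list is below the vehicle mice in all 4 oxaliplatin mice.

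Leukocyte markers varied widely among the oxaliplatin mice. B lymphocyte markers summed to 6.33, 107, 132 and 494 CPM in oxaliplatin mice 2 to 5 and 117, 140.4 and 169 CPM in vehicle mice 1, 2 and 4, so mouse 2 was far below and mouse 5 above the vehicle range. Ighm, the heavy chain of immunoglobulin M, was at 1.57, 45.1, 62.1 and 178 CPM in the oxaliplatin mice and 105, 119 and 153 CPM in the vehicle mice, where it made up most of this sum. Cd79a, a chain of the B cell receptor, was at 0.216, 5.22, 8.85 and 33.5 CPM with oxaliplatin and 0.667, 1.39 and 0.826 CPM with vehicle, and Ms4a1 (CD20) was at 0, 2.53, 2.93 and 22.6 CPM with oxaliplatin and 0.267, 0.173 and 0.22 CPM with vehicle. Of 12 B cell genes 11 lay above 0 (median 3.17, and 1.64 over the 10 still tested without oxaliplatin mouse 5), no gene had groups that did not overlap, and 0 were called without mouse 5, where DESeq2 called 7 higher over all 7 libraries and 6 were higher at an unadjusted p under 0.05. Members near 0 CPM with vehicle, such as Ms4a1, passed the count filter through the oxaliplatin libraries. That tilts the count above 0 and the median upward, so neither is a test of B cell genes. T and NK markers summed to 10.0, 62.8, 62 and 108 CPM in oxaliplatin mice 2 to 5 and 22.4, 27.6 and 17 CPM in the vehicle mice. Cd3e, a chain of the T cell receptor complex, was at 4.44, 9.99, 11 and 12.6 CPM with oxaliplatin and 1.67, 1.85 and 1.1 CPM with vehicle (2.62 ± 0.41), higher in every oxaliplatin library, mouse 2 included. MHC class II and dendritic cell markers summed to 23.1, 106, 134 and 1082 CPM in oxaliplatin mice 2 to 5 and 646, 1276 and 687 CPM in the vehicle mice. H2-Ab1, a class II chain, was at 1.57, 13.5, 18.1 and 183 CPM with oxaliplatin and 118, 231 and 122 CPM with vehicle, so oxaliplatin mice 2 to 4 were below all vehicle mice and mouse 5 was within their range. Cell cycle genes had a level of -0.42, -0.22, -0.46 and 1.68 in oxaliplatin mice 2 to 5 and 0.62, -0.03 and -0.59 in the vehicle mice, highest in mouse 5, the library also highest in B cell, T cell and neutrophil markers. Of 24 interferon-stimulated genes 13 were called lower and 1 higher without oxaliplatin mouse 5, against 13.5% and 12.0% of all genes. Over all 7 libraries 1 was higher and 1 lower at an unadjusted p under 0.05. The part of leukocytes in these results was not tested.

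The 17 macrophage genes summed to 5586 to 6234 CPM with oxaliplatin and 4677 to 7353 CPM with vehicle, with 8 above 0 and 9 below, and 1 had all oxaliplatin libraries above vehicle and 1 all below. The list holds Lpl, also on the adipokine and fatty acid uptake lists, so the sum need not come from macrophages alone. Its level was -0.34, 0.10, 0.31 and 0.66 in oxaliplatin mice 2 to 5. In vehicle mice 1, 2 and 4 it was -0.47, 0.43 and 0.04. Cd163, a haemoglobin scavenger receptor of resident macrophages, was at 44.5, 46.3, 47.2 and 53.7 CPM with oxaliplatin and 73.8, 114 and 106 CPM with vehicle (-1.03 ± 0.16), while Cd68, a lysosomal protein, was at 32, 44.1, 61.9 and 46.5 CPM with oxaliplatin and 13.4, 30.2 and 22 CPM with vehicle (1.08 ± 0.32). Cxcl13, a chemokine that draws B cells, was at 124, 93.8, 102 and 19.1 CPM with oxaliplatin and 0.801, 1.16 and 13.3 CPM with vehicle (4.05 ± 1.15). Of the 17 endothelial genes 10 lay above 0 and 7 below, where 52.4% of all genes lay above 0. Without oxaliplatin mouse 5, 3 were called higher and 1 lower, against 12.0% and 13.5% of all genes. The list as a whole thus had no clear direction. Among single members, Pecam1, a junction protein, was at 239.9 to 331 CPM with oxaliplatin and 136 to 212 CPM with vehicle (0.73 ± 0.20), and Tek, the angiopoietin receptor, was lower (-0.44 ± 0.10). Of 7 lymphatic markers 6 lay above 0 (median 0.89, and 0.54 without oxaliplatin mouse 3), and Prox1, the factor that sets lymphatic identity, was at 3.14, 16.4, 10.8 and 6.29 CPM with oxaliplatin and 2.0, 2.48 and 2.09 CPM with vehicle (2.06 ± 0.55). Of 8 tested markers of skin and mammary epithelium 6 lay below 0, 1 of them without overlap. Their level was -2.42, -1.85, -0.28 and -1.88 in oxaliplatin mice 2 to 5 and 1.36, 0.74 and -2.11 in vehicle mice 1, 2 and 4, so vehicle mouse 4 lay within the oxaliplatin range. Krt5, a basal keratin, was at 0, 0, 1.49 and 0.0588 CPM with oxaliplatin and 43.7, 9.7 and 0 CPM with vehicle, so 2 of the vehicle libraries carried keratin transcripts that were at or near 0 in the others. Trp63, a factor of basal epithelium, was higher in the oxaliplatin mice (1.85 ± 0.44).

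**Figure D5:**
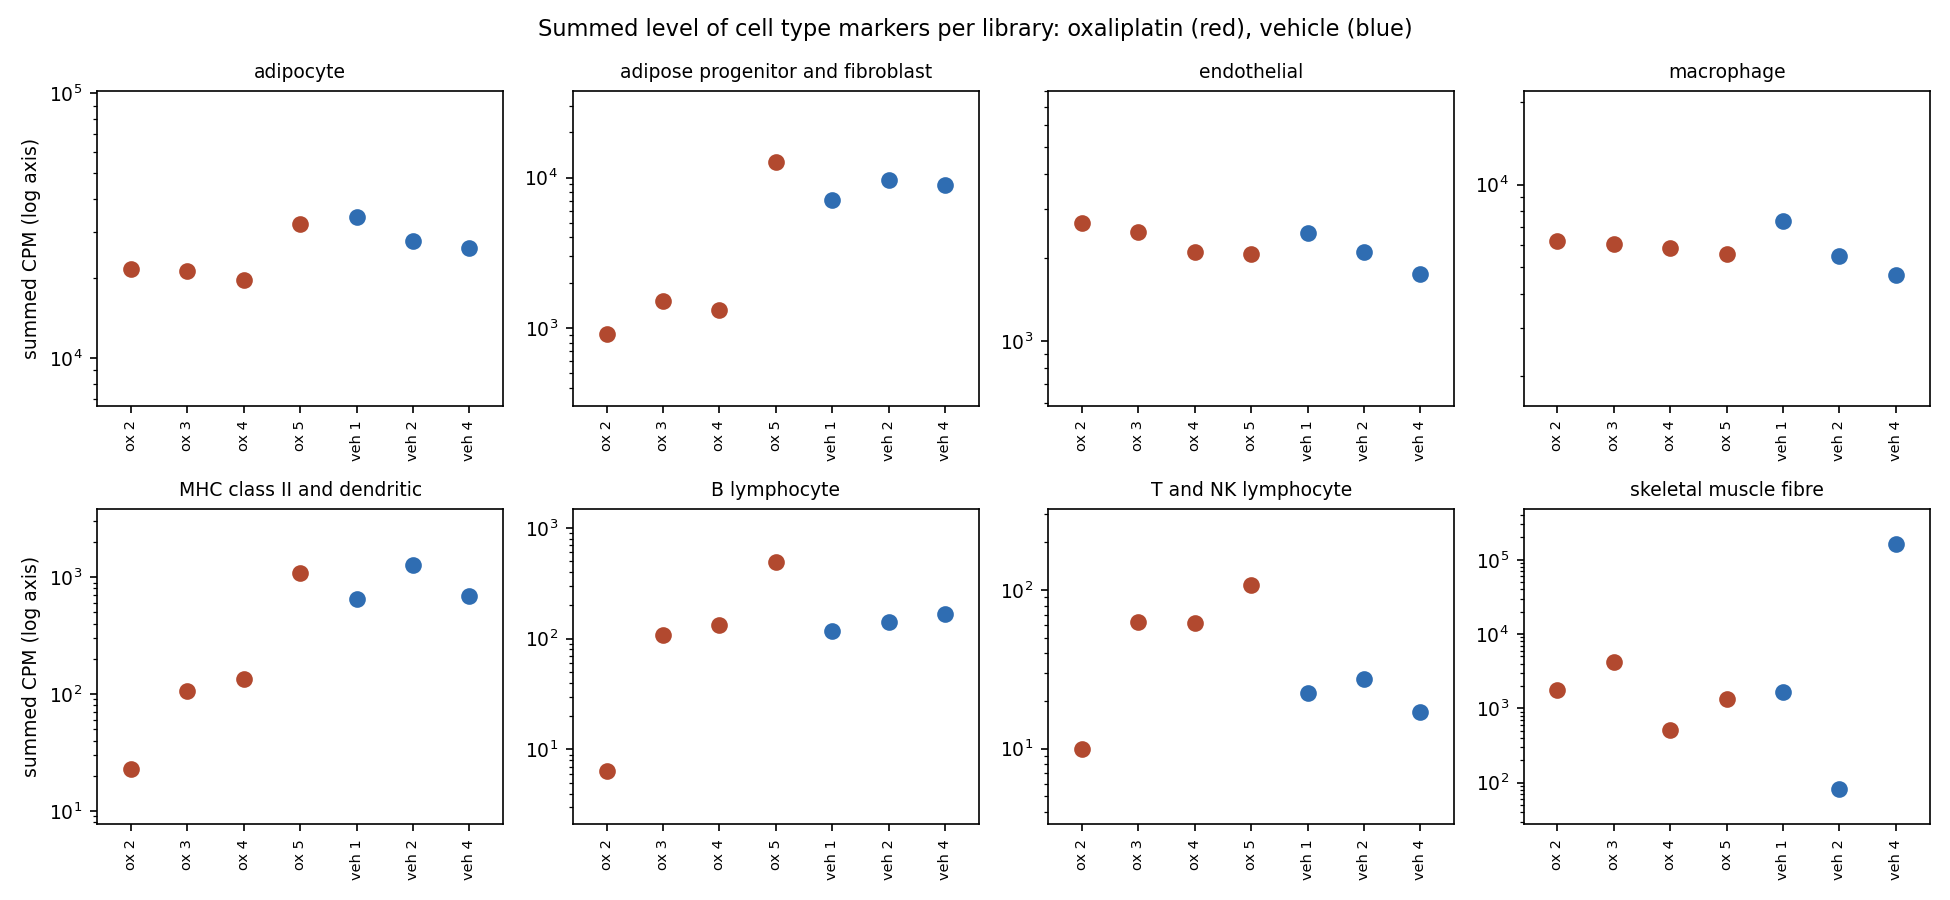
Summed CPM of the markers of 8 cell types in each library on log axes, oxaliplatin mice in red at the left of each panel and vehicle mice in blue at the right. The macrophage list includes Lpl, which is also on the adipokine list. Muscle fibre markers reach 160857 CPM in vehicle mouse 4, and B lymphocyte markers run from 6.33 CPM in oxaliplatin mouse 2 to 494 CPM in oxaliplatin mouse 5.

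The largest fold changes among genes that DESeq2 called, whose groups did not overlap and whose higher mean was at least 5 CPM, were again carried mostly by oxaliplatin mice 2 to 4. Apoc3, an apolipoprotein best known from liver, was at 98.3, 36.6, 18.9 and 0.294 CPM with oxaliplatin and 0.0668, 0.116 and 0.22 CPM with vehicle (edgeR 8.06 ± 1.93, DESeq2 adjusted p = 1.41e-05, and 1.41e-05 to 0.479 over the 16 of 19 alternatives in which it passed the count filter). Cyp2b10, a cytochrome P450 that metabolises drugs, was at 37.3, 22.9, 59.4 and 0.764 CPM with oxaliplatin and 0.667, 0.116 and 0.055 CPM with vehicle (6.79 ± 1.57, DESeq2 adjusted p = 9.49e-05, and 9.49e-05 to 0.359 over the alternatives). In both genes mouse 5 was barely above the highest vehicle mouse. Hpd, a dioxygenase of tyrosine breakdown, gave 4.55 ± 1.04, Slc25a34, a mitochondrial carrier, 4.87 ± 1.11, and Chil3, a chitinase-like protein of macrophages, 5.70 ± 1.39. Madcam1, an adhesion molecule for lymphocytes, was at 10.6, 4.34, 4.18 and 1.12 CPM with oxaliplatin and 0.134, 0 and 0.11 CPM with vehicle (5.87 ± 1.05). Igha, the constant region of immunoglobulin A, was at 7.74, 30.4, 29.7 and 77.9 CPM with oxaliplatin and 0.868, 2.14 and 0.77 CPM with vehicle (4.84 ± 0.88), and S100a9, a neutrophil protein, at 0.811, 2.25, 3.08 and 31.3 CPM with oxaliplatin and 0, 0.347 and 0.275 CPM with vehicle, with mouse 5 highest in both. Nr4a3, an immediate early nuclear receptor, was at 158, 150.1, 10.2 and 3.59 CPM with oxaliplatin and 2.0, 2.66 and 1.43 CPM with vehicle (5.31 ± 1.48), high in mice 2 and 3. On the lower side, Plppr4, a membrane protein of the lipid phosphatase family, was at 0, 0.0549, 0.0481 and 0.882 CPM with oxaliplatin and 9.08, 5.26 and 3.8 CPM with vehicle (-4.63 ± 1.03), and Ncan, the proteoglycan neurocan, at 0.0541, 0, 0.0481 and 1.59 CPM with oxaliplatin and 20.2, 6.35 and 11.8 CPM with vehicle (-4.95 ± 1.21). Klf14, a regulator of fat metabolism genes, was at 0.271, 0.0549, 0 and 0.882 CPM with oxaliplatin and 5.07, 3.12 and 9.3 CPM with vehicle (-4.29 ± 0.96). Cox7a1, Shisa2, Fbp2 and Sbk2 were also on this side, each highest in vehicle mouse 4, with Cox7a1 at 0.162, 0.0549, 0.385 and 0.764 CPM in the oxaliplatin mice and 3.94, 2.25 and 25.8 CPM in the vehicle mice.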

How the data were processed

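Gene-level estimated counts were deposited for fat as 1 table, in which 41.4% of the values are not whole and every gene sums to at least 10. Per the submitters' processing notes, STAR 2.5.1a, Partek and DESeq2 were used. No build is named in those notes, but 99.5% of the gene starts equal those of GENCODE M21 on GRCm38, so that build is named. The counts were rounded, genes kept by edgeR's filterByExpr (minimum count 10, minimum total 15), scaled by TMM and tested with edgeR 4.0.16 (robust quasi-likelihood, Benjamini-Hochberg adjustment at 0.05) under R 4.3.3, on 4 oxaliplatin and 3 vehicle libraries with no covariate. The pipeline was tested on simulated counts. DESeq2 1.42.0, limma-voom (limma 3.58.1), other scalings and filters, a replicate block, a muscle covariate and leaving out each library were alternatives.

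CPM values carry the TMM factors. Library depth, the total count, was 16.5 to 22.7 M, and no replicates agreed within sampling noise. Genes named are the 4 markers given with the comparison, the 10 of smallest p in each direction whose groups do not overlap and whose higher mean is at least 1 CPM, up to 5 members of smallest p and the defining markers of each list, the 10 largest folds in each direction among DESeq2 calls with a higher mean of at least 5 CPM, and a short set of genes of wide interest. Acaca, Acacb, Ak1, Arntl, Col1a1, Col3a1, Cyp51, Dbp, Dcn, Ddit4, Ddit4l, Gm17300, Hlf, Ighm, Nfil3, Nnat, Npas2, Pdgfra, Perp, Phlda3, Rcc1, Sc5d, Snhg1, Snhg3 and Tef fall outside this rule and were chosen after their values were seen. The comparison and the 52 lists were chosen with earlier results of these data known. Members of lists that are not in the table, such as Fgf21, were not analysed here, and some items are not reported here.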

Additional observations from a re-analysis of the deposited data

Results flagged for a closer look

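Within the 4 oxaliplatin mice, 1 library lay far from the other 3 on the log2 scale in 13 of 151 genes and in 6 of 52 list levels examined, with a gap to the nearest value too wide by Dixon's test at 95%. Chance flags about 1 in 20 groups that are independent and not chosen by their values. Here many genes were chosen by their values and all share the same 4 mice, so that rate is no benchmark. The library was that of oxaliplatin mouse 5 in 11 of these genes and in all 6 lists.

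Mouse 5 was the highest of the oxaliplatin mice for Col3a1 (5170 CPM), Dpt (405 CPM), Nnat (766 CPM), Pi16 (163 CPM) and Ncan (1.59 CPM). It was the lowest for Acacb (377 CPM), Igfbp3 (45.9 CPM), Nfkbia (62.1 CPM), Cxcl13 (19.1 CPM), Upp1 (4.35 CPM) and Elovl3 (0.118 CPM). Of these, Upp1, Nfkbia and Cxcl13 were still above every vehicle mouse.

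Among lists, mouse 5 stood above the other oxaliplatin mice for the adipokines, at a level of -0.22 relative to the vehicle mean, for fatty acid uptake and triglyceride synthesis at -0.12, for lipolysis and the lipid droplet at -0.27, for the 4 markers given with the comparison at -0.94 and for the cell cycle at 1.68. It stood below them for the NRF2 and glutathione list, at -0.09. The cell cycle was the list in which mouse 5 was also above every vehicle mouse, and it was the library highest in B cell, T cell and neutrophil markers.

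Oxaliplatin mouse 4 stood apart for Krt5, a keratin of basal epithelium, at 1.49 CPM, and oxaliplatin mouse 3 for the clock output factor Tef, at 182 CPM.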

How the results depend on the processing

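The number of calls depended on both the test and the libraries that entered. Genes past an adjusted p of 0.05 numbered 0 higher and 0 lower over the 7 libraries, but 1168 and 1282 by DESeq2, 2269 and 2814 by limma-voom with sample quality weights, and 1743 and 2344 without both oxaliplatin mouse 5 and vehicle mouse 4. Leaving out 1 library gave 0 to 2346 higher and 0 to 2623 lower calls. The upper ends came without oxaliplatin mouse 5, the oxaliplatin library nearest to the vehicle mice, leaving out oxaliplatin mouse 2 gave 6 higher, and every other library gave 0 and 0. At an unadjusted p under 0.05, leaving out 1 library gave 1645 to 3872 higher and 1536 to 3988 lower genes, with both lower ends without oxaliplatin mouse 3. Lower genes at that p numbered 4192 with sample quality weights and 3916 without both libraries. Genes whose groups did not overlap numbered 2212 to 4573 higher and 2325 to 4485 lower without 1 library, and 5614 and 5597 without both, where fewer libraries alone make overlap rarer. The cause of the other shifts was not tested. The other scalings, filters, limma-voom and the muscle covariate kept 0 calls.

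The replicate block gave 0 calls, with 1812 higher and 2147 lower genes at an unadjusted p under 0.05. Only mouse numbers 2 and 4 occur in both groups, and the deviations of same-numbered mice correlated at -0.18 and -0.28, so the numbers were not taken as pairs.

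Ttn changed sign, with a log2 fold change of 0.019 by limma-voom, 2.13 with sample quality weights, 1.21 with the muscle covariate, 1.37 without both libraries and a range of -5.17 to 1.22 without 1 library, above 0 only without vehicle mouse 4. Acaca, at -0.69 over the 7 libraries, was 0.17 under the block. Genes near 0 also changed sign, with -0.11 for Dcn under the block, and -0.33 to 0.040 for Pdgfra without 1 library, above 0 without oxaliplatin mouse 2 or vehicle mouse 2. Rcc1 was -0.10 with sample quality weights, -0.054 under the block, -0.13 without both libraries and -0.13 to 0.10 without 1 library, below 0 without oxaliplatin mouse 5 or vehicle mouse 2. The median of all genes was 0.10 with upper quartile scaling, against 0.03. Low counts limit genes near 0 CPM, where a fold change rests on few reads.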

Other observations

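Several further gene groups were measured. Of 13 markers of Schwann cells and nerve, 10 lay below 0 (median log2 fold change -0.43, oxaliplatin over vehicle, and -0.70 without oxaliplatin mouse 5), and without oxaliplatin mouse 5, 5 were called lower and 1 higher by edgeR. Pmp22, a myelin protein also made by fibroblasts, was at 61.3, 58.7, 67.6 and 128 CPM in oxaliplatin mice 2 to 5 and 152, 147 and 167 CPM in vehicle mice 1, 2 and 4, and S100b, a calcium-binding protein of Schwann cells that adipocytes also make, was at 2.27, 1.32, 0.962 and 2.23 CPM with oxaliplatin and 6.34, 3.75 and 4.29 CPM with vehicle. Of 20 genes of hypoxia and vessel growth, 6 were higher and 3 lower in all oxaliplatin libraries, and 9 were called higher and 6 lower without oxaliplatin mouse 5. The shares over all genes were 10.3% and 11.2% without overlap, and 12.0% and 13.5% called. Egln3, a hydroxylase that marks hypoxia factors for breakdown, was at 15.7, 11.9, 15.8 and 7.11 CPM with oxaliplatin and 4.67, 2.37 and 3.96 CPM with vehicle (1.78 ± 0.36), and Egln1, its relative, at 68.8, 68.7, 67.2 and 74.5 CPM with oxaliplatin and 102, 89.9 and 138 CPM with vehicle (-0.66 ± 0.16).

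Among 22 immediate early genes 7 were called higher and 2 lower without oxaliplatin mouse 5. Myc, a growth factor-induced regulator, was at 35.9, 47.7, 40.2 and 25.8 CPM with oxaliplatin and 15.8, 18.6 and 19.2 CPM with vehicle (1.07 ± 0.21), without overlap. Of 14 adipogenic factors 7 lay above 0 and 7 below, and 5 were called higher and 2 lower without oxaliplatin mouse 5. Klf15, a factor that glucocorticoids induce, was at 252, 214, 144 and 112 CPM with oxaliplatin and 86.9, 78.3 and 64.3 CPM with vehicle (1.24 ± 0.30). Of 12 pericyte and smooth muscle markers, Acta2, smooth muscle actin, was at 72.1, 56.7, 46.8 and 64.2 CPM with oxaliplatin and 92.2, 157 and 223 CPM with vehicle (-1.39 ± 0.29), and Kcnj8, a potassium channel of pericytes, at 46.4, 52.8, 44.6 and 35.3 CPM with oxaliplatin and 31.6, 26.2 and 22.1 CPM with vehicle (0.75 ± 0.18), so 2 markers of the same list differed in opposite directions without overlap. All 7 mast cell markers lay above 0 (median 1.33, but 0.63 without oxaliplatin mouse 4), and 1 of the 6 still tested without oxaliplatin mouse 5 was called higher, where 12.0% of all genes were. Fcer1a, the receptor chain for immunoglobulin E, was at 1.24, 3.79, 6.35 and 1.82 CPM with oxaliplatin and 0.0668, 0.289 and 0.22 CPM with vehicle (4.03 ± 0.77). Being near 0 CPM with vehicle, Fcer1a passed the count filter through the oxaliplatin libraries. Such members tilt the count above 0 and the median upward, so neither is a test of mast cell genes. Of 31 proteasome genes 19 lay below 0, where 47.6% of all genes did. Without oxaliplatin mouse 5, 2 were called higher and 1 lower, against 12.0% and 13.5% of all genes.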
